A study of Mus musculus with 6 samples.

Results

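*Apold1*, *Klf2*, *Klf4*, *Nos3*, and *Thbd* are genes of the vessel wall whose RNA responds to stimuli such as blood flow, and *Cldn5*, *Pecam1*, *Flt1*, *Cdh5*, and *Slco1a4* are steady markers of endothelial cells. These 10 of the 53715 genes in the table were chosen by name, with the genotype contrast in these same mice known. *Apold1* was chosen by its known fall in that contrast. The genotype differences of the 10 genes are therefore given as a description. Their intervals, p-values, and counts past a threshold come from the same contrast and support nothing by themselves. RNA-Seq was performed on the whole cerebellum of 4-week-old male mice, labelled C57BL/6 and, by the methods, from lines kept on C57BL/6J, 3 control and 3 *Slc39a8*-NSKO. In *Slc39a8*-NSKO mice, the Cre recombinase of the *Syn-Cre* transgene is active in neurons, where it deletes the floxed *Slc39a8* alleles. The study describes the deletion as neuron-specific, and Cre activity in endothelial cells was not measured here. The study also states that *Syn-Cre* may vary between brain regions. It cites public human brain data in which *SLC39A8* is high in endothelial cells. The sample labels call the controls WT and the other mice slc39a8-KO, whereas the study's text speaks of *Slc39a8* fl/fl controls in one place and of wild-type mice in others, so the control genotype is not settled and it is not stated whether any control carried Cre. Gene counts per mouse were between 14431260 and 20844267. Counts of *Slc39a8*, the targeted gene, were 99, 46, and 44 in controls 1 to 3, against 38, 40, and 41 in their *Slc39a8*-NSKO counterparts. All *Slc39a8*-NSKO mice lay below all controls, with a mean at 56.8% of control (log2 fold change -0.83, edgeR's adjusted p = 0.534), so that much of its RNA in this bulk tissue remained.

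Endothelial cells line every blood vessel, and in the brain they form the blood-brain barrier by sealing their contacts with tight junctions and by carrying selected transporters. Steady laminar flow activates a kinase cascade in these cells, MEK5 to ERK5, which acts on MEF2 transcription factors at the gene of *Klf2*. KLF2 and the related KLF4 are zinc finger transcription factors that in turn activate *Nos3*, the gene of endothelial nitric oxide synthase, and *Thbd*, the gene of thrombomodulin. *Apold1* encodes a membrane protein with an apolipoprotein L domain and is known as an early response gene of vessels. Although these genes are used as endothelial genes, *Klf2* is also active in leukocytes and *Klf4* in other barrier and stem cells, and bulk RNA does not show which cell made a transcript.

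The starts of 6 of the 10 genes were found in a RefSeq table of promoter windows (GRCm38.p6, 250 bases before to 50 after the start), and *Nos3*, *Thbd*, *Pecam1*, and *Cdh5* were not. Each window was searched on both strands for the full cAMP response element (CRE) TGACGTCA, its core TGACG, which every full site contains, the AP-1 site TGANTCA, the CArG box, the MEF2 site, CACCC, the GC box GGGCGG, and TATAAA. Parts of 3 windows are shown because *Apold1* and *Klf2* were the genes that were lower and *Flt1*, a steady marker, carried the full CRE. The *Apold1* stretch lies at chr6:134981947-134981976 on the plus strand, the *Klf2* stretch at chr8:72318812-72319032 on the plus strand, and the *Flt1* stretch at chr5:147726012-147726261 on the minus strand. Capitals mark the core CRE and TATAAA in *Apold1*, the core CRE and the MEF2 site in *Klf2*, and the full CRE and TATAAA in *Flt1*.
Apold1: gcCGTCAttggctcctgggagcTATAAAgt
Klf2: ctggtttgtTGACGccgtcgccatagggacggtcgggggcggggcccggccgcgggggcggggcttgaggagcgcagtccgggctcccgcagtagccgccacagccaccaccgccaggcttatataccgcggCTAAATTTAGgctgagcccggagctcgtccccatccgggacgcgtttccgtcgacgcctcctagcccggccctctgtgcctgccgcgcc
Flt1: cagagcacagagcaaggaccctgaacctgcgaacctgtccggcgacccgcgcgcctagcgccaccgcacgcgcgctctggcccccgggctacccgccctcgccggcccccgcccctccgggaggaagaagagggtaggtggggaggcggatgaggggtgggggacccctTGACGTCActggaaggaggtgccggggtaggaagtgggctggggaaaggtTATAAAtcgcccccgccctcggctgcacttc

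The core CRE was present in the windows of *Apold1*, *Klf2*, *Klf4*, and *Flt1*, 4 of the 6, and in 20.8% of the 32851 windows of the table. The full CRE was found in the window of *Flt1* alone among the 6 and in 1.79% of all windows. The MEF2 site was found in *Klf2* alone and in 0.557% of all windows. No window of the 6 held an AP-1 site or a CArG box, which were present in 7.81% and 1.63% of all windows. TATAAA was present in *Apold1* and *Flt1* and in 13.6% of all windows. CACCC was found in 4 of the 6 and in 57.5% of all windows, and the GC box in 4 of the 6 and in 35.7% of all windows. GENCODE starts *Apold1* 283 bases upstream of the RefSeq start, so that it places the whole RefSeq window except its last part inside the first exon, and only 30 bases are shown. The GC content of the windows was 74.3% for *Klf4*, 70.7% for *Flt1*, 69.3% for *Klf2*, and 58.3% for *Cldn5*. It was 51.7% for *Apold1* and 40.7% for *Slco1a4*, and the median of all windows was 52.7%. The shares of all windows were not matched for GC content, so no excess of a motif is read from them. A match of letters describes the window and is no evidence of binding.

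*Apold1* (ENSMUSG00000090698.2, chromosome 6, 134981718 to 134986836, plus strand of GRCm38) was the member that differed most. Controls 1 to 3 had 223, 134, and 164 counts, and *Slc39a8*-NSKO mice 1 to 3 had 54, 52, and 82. Scaled to library size as CPM (each mouse's counts as a rate over its TMM-normalized total), these were 10.8, 9.32, and 10.5 in the controls and 2.70, 2.67, and 4.36 in the *Slc39a8*-NSKO mice. The highest *Slc39a8*-NSKO mouse, number 3, was still below the lowest control mouse, number 2. The controls averaged 10.2 ± 0.777 CPM and the *Slc39a8*-NSKO mice 3.24 ± 0.964 CPM (SD, n = 3 each), which is 31.8% of control. The log2 fold change was -1.66 (standard error 0.183, 95% interval -2.05 to -1.26), number 12 from the lowest among the 16330 genes tested. It was -1.93 without *Slc39a8*-NSKO mouse 3, the highest of its group, and between -1.93 and -1.54 over all alternatives that were run. GENCODE annotates no other gene over *Apold1*, and its counts were whole numbers in all 6 mice. The study also reports lower *Apold1* by qPCR in RNA samples that it describes as independent, which are not part of the data used here.

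*Klf2* (ENSMUSG00000055148.7, chromosome 8, 72319033 to 72321656, plus strand) was the other member whose genotypes did not overlap. Control mice 1 to 3 had 15.1, 22.1, and 18.2 CPM, and *Slc39a8*-NSKO mice 1 to 3 had 8.66, 9.60, and 13.1 CPM. The gap between the genotypes was narrow, since control mouse 1 was the lowest control and *Slc39a8*-NSKO mouse 3 the highest of its group. The averages were 18.5 ± 3.51 CPM for controls and 10.5 ± 2.35 CPM for *Slc39a8*-NSKO mice (SD, n = 3 each), which is 56.6% of control. The log2 fold change was -0.81 (standard error 0.161, 95% interval -1.16 to -0.47). Leaving out 1 mouse gave -1.01 (without *Slc39a8*-NSKO mouse 3) to -0.67 (without control mouse 2). Transcripts of *Klf2* are rich in G and C (61.6%), and with each library's trend on GC content and transcript length removed its log2 fold change was -0.83.

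*Klf4* (chromosome 4, 55527143 to 55532466, minus strand), which shares the flow-responsive program of *Klf2*, overlapped between the genotypes. Its values were 5.65, 7.93, and 6.88 CPM in control mice 1 to 3 and 6.91, 3.95, and 7.44 CPM in *Slc39a8*-NSKO mice 1 to 3. *Slc39a8*-NSKO mouse 2 had the lowest and control mouse 2 the highest value, and the other mice lay in between in mixed order. Averages were 6.82 ± 1.14 CPM for controls and 6.10 ± 1.88 CPM for *Slc39a8*-NSKO mice (SD, n = 3 each). On the log2 scale the difference was -0.15 (standard error 0.213). The 95% interval ran from -0.61 to 0.31, so that a fall or a rise of moderate size lies within it. *Klf4* transcripts are as rich in G and C as those of *Klf2* (61.5%).

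*Nos3* (chromosome 5, 24364810 to 24384474, plus strand), the nitric oxide synthase of endothelial cells and a target of both KLF factors, had 7.19, 7.65, and 7.0 CPM in control mice 1 to 3. In *Slc39a8*-NSKO mice 1 to 3 it had 7.91, 7.39, and 8.39 CPM. These values overlapped, and the log2 fold change was 0.12 (standard error 0.127, 95% interval -0.16 to 0.39). *Nos3* overlaps *Atg9b* and *Gm15587* on the opposite strand, and some of its counts were not whole. At most 21 counts lay on *Atg9b* and at most 9 on *Gm15587* in a mouse, against 109 to 158 on *Nos3*.

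*Thbd* (chromosome 2, 148404466 to 148408188, minus strand), whose product binds thrombin and turns it toward the activation of protein C, had 8.69, 8.97, and 9.19 CPM in control mice 1 to 3. *Slc39a8*-NSKO mice 1 to 3 had 7.56, 10.4, and 10.8 CPM, so that mouse 1 lay below all controls and the other two above them. The log2 fold change was 0.10 (standard error 0.144, 95% interval -0.21 to 0.41). Thus neither of these KLF2 targets was lower on average in the mice with less *Klf2*.

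**Figure D1:**
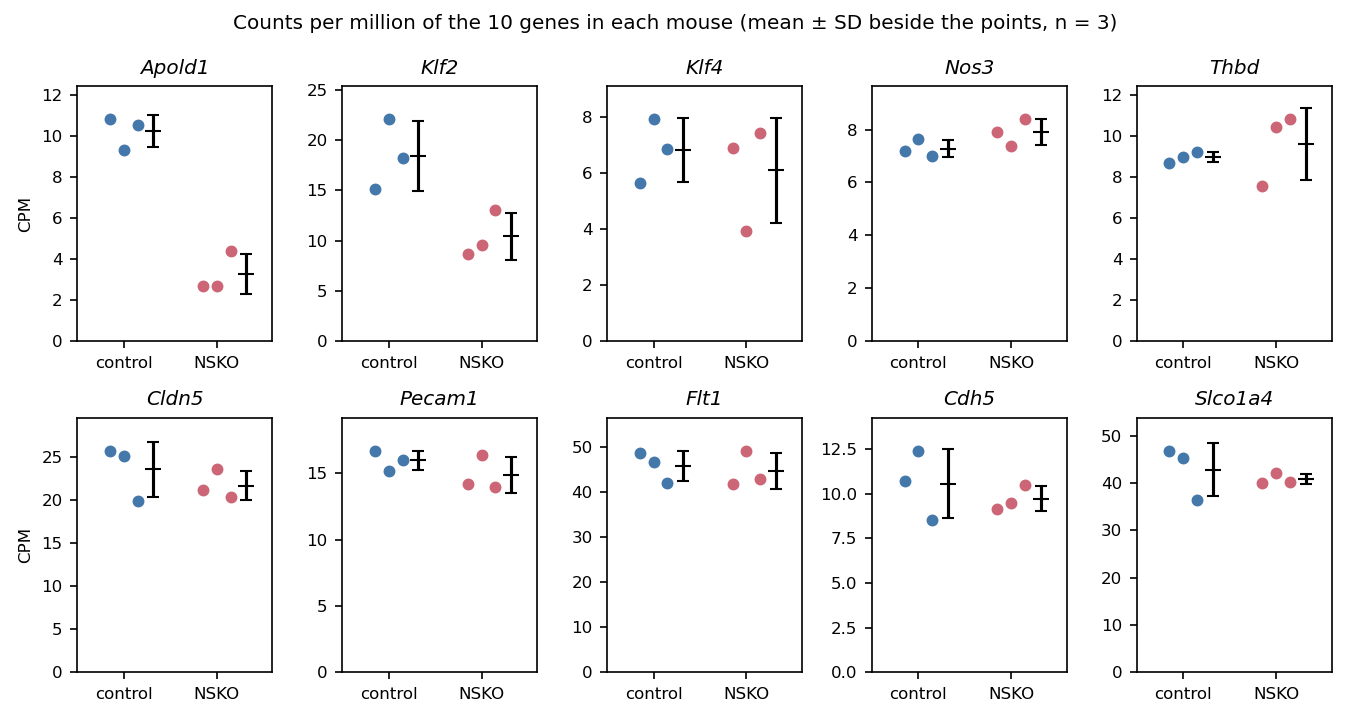
Each panel shows the CPM of 1 gene on its vertical axis, from 0, with 1 point per mouse in the control and the *Slc39a8*-NSKO group and the mean ± SD (n = 3) beside them. The genotypes are apart for *Apold1* and *Klf2* and overlap for the other 8 genes.

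The 5 steady markers overlapped between the genotypes. *Cldn5*, the tight junction protein claudin-5, had 25.7, 25.1, and 19.9 CPM in control and 21.1, 23.6, and 20.3 CPM in *Slc39a8*-NSKO mice. *Pecam1*, an adhesion molecule at endothelial cell contacts, had 16.7, 15.2, and 16.0 CPM in control and 14.2, 16.4, and 14.0 CPM in *Slc39a8*-NSKO mice. *Cdh5*, the cadherin of endothelial adherens junctions, had 10.7, 12.4, and 8.55 CPM in control and 9.16, 9.50, and 10.5 CPM in *Slc39a8*-NSKO mice. In these 3 junction genes the highest *Slc39a8*-NSKO mouse lay above the lowest control. *Flt1*, a VEGF receptor, had 48.5, 46.5, and 42.0 CPM in control and 41.8, 49.1, and 42.8 CPM in *Slc39a8*-NSKO mice. *Slco1a4*, an organic anion transporter of the blood-brain barrier, had 46.8, 45.2, and 36.4 CPM in control and 40.0, 42.0, and 40.3 CPM in *Slc39a8*-NSKO mice. Control mouse 3 was the lowest control mouse for *Cldn5*, *Cdh5*, *Flt1*, and *Slco1a4*.

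The log2 fold changes of the markers were -0.12 for *Cldn5* (standard error 0.103), -0.10 for *Pecam1* (0.0992), -0.04 for *Flt1* (0.0794), -0.12 for *Cdh5* (0.140), and -0.07 for *Slco1a4* (0.0866). The lowest bound of any of their 95% intervals was -0.42, for *Cdh5*, and the highest was 0.18, for the same gene. Their median was -0.10, against a median of 0.0011 over all genes tested. Each of these intervals contained 0, and a broader list of 33 other endothelial markers had a median of 0.02. In bulk RNA, a change in the number of endothelial cells cannot be told apart from a change in RNA per cell.

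All 10 members passed the filter on low counts. Over all 16330 genes tested with edgeR's quasi-likelihood test, 0.0980% had an adjusted p below 0.05, and of the members this was *Apold1*, 1 of 10. An unadjusted p below 0.05 was found for 5.39% of all genes and for 2 of the 10 members, *Apold1* and *Klf2*. The mice of the genotypes did not overlap in 10.3% of all genes and every *Slc39a8*-NSKO mouse was below every control mouse in 5.26%, against 2 of the 10 members. With DESeq2, 0.136% of the 27181 genes with an adjusted p passed, and *Apold1* and *Klf2* were among them. *Apold1* passed in all 14 alternatives and *Klf2* in 6 of them, which were DESeq2, no filter on low counts, offsets for GC content and length, the replicate number as a block, and the fits without control mouse 1 or without *Slc39a8*-NSKO mouse 3. The genotype contrast had a part in the choice of the members, so that nothing is read from these shares.

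**Figure D2:**
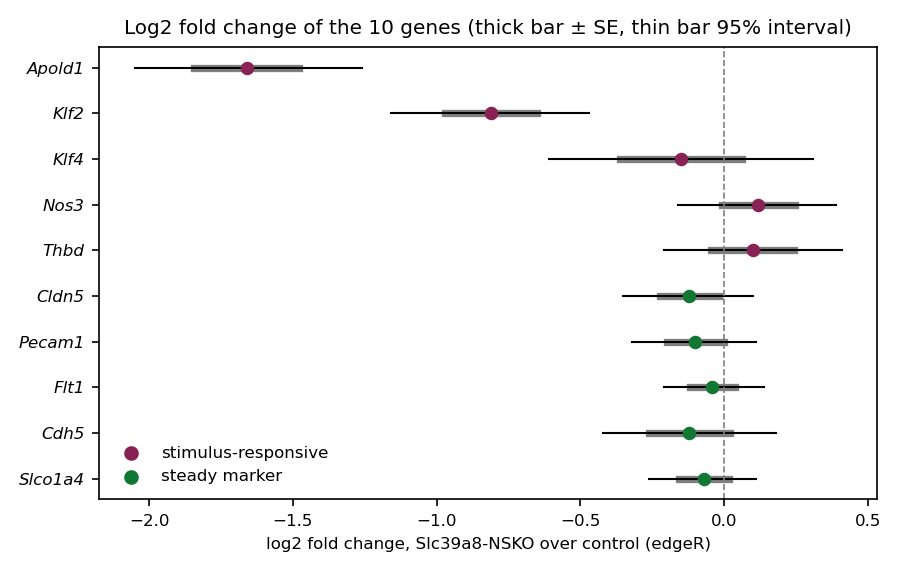
The horizontal axis shows the log2 fold change of *Slc39a8*-NSKO over control from edgeR for each of the 10 genes, with thick bars for the standard error and thin bars for the 95% interval. The intervals of *Apold1* (-2.05 to -1.26) and *Klf2* (-1.16 to -0.47) lie below 0, and those of the other 8 genes contain it.

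Expressed per endothelial RNA, the stimulus-responsive genes kept their order of change. The summed CPM of the 5 markers was 148, 144, and 123 for controls and 126, 141, and 128 for *Slc39a8*-NSKO mice, 95% of control. Per 100 CPM of that sum, controls had 7.25, 6.45, and 8.59 CPM of *Apold1* and *Slc39a8*-NSKO mice 2.14, 1.90, and 3.41, which is 33.4% of control and without overlap. Controls had 10.2, 15.3, and 14.9 CPM of *Klf2* and *Slc39a8*-NSKO mice 6.86, 6.82, and 10.3, which is 59.3% of control, and *Slc39a8*-NSKO mouse 3 now lay just above control mouse 1. The same ratios were 94.6% of control for *Klf4*, 114% for *Nos3*, and 112% for *Thbd*, with overlap in each. A broader list of 33 other endothelial markers summed to 405 to 425 CPM in control and 377 to 435 CPM in *Slc39a8*-NSKO mice. Relative to this list, *Apold1* stood at 32.2% and *Klf2* at 57.3% of control, both without overlap.

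**Figure D3:**
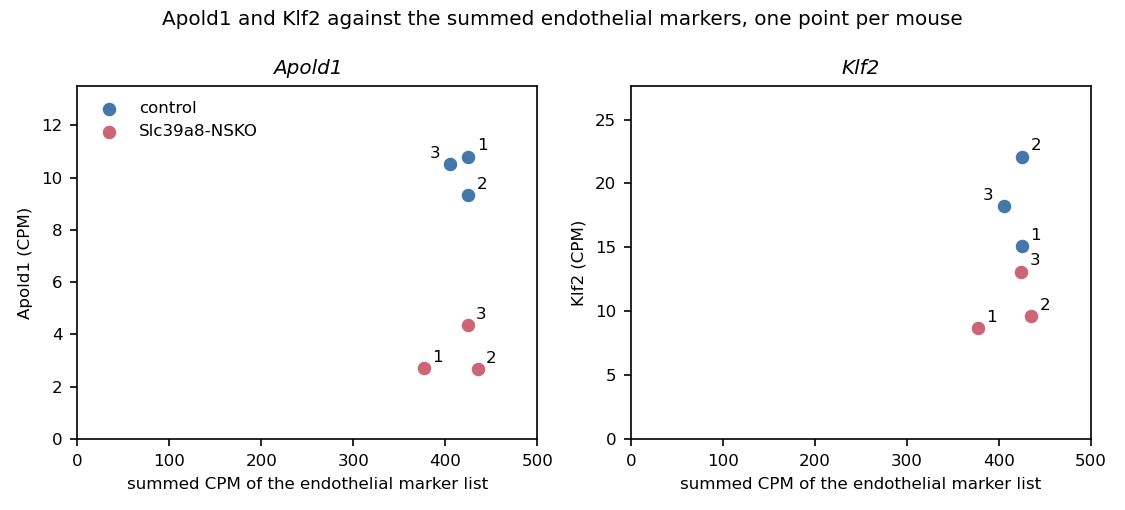
The vertical axes show *Apold1* (left) and *Klf2* (right) in CPM and the horizontal axes the summed CPM of the 33 endothelial markers, with 1 numbered point per mouse. The sums of the genotypes overlap (405 to 425 in control, 377 to 435 in *Slc39a8*-NSKO mice), whereas the values of *Apold1* and *Klf2* do not.

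To compare levels between genes, CPM was divided by the length of each gene's exons in kb. In control mice *Cldn5* was highest with 16.6 ± 2.27 CPM per kb (SD, n = 3), followed by *Klf2* (10 ± 1.90), *Slco1a4* (6.67 ± 0.877), *Flt1* (3.38 ± 0.246), and *Apold1* (2.86 ± 0.218). The mice of these neighbours did not overlap. Lower in the order stood *Pecam1* (2.56 ± 0.127), *Cdh5* (2.51 ± 0.465), *Thbd* (2.40 ± 0.0676), *Klf4* (2.24 ± 0.374), and *Nos3* (1.76 ± 0.0804), and from *Apold1* downward the mice of each pair of neighbours overlapped. In *Slc39a8*-NSKO mice *Apold1* had moved from number 5 to number 10, with 0.909 ± 0.270 CPM per kb, below *Nos3* (1.91 ± 0.121) without overlap. *Klf2* moved from number 2 to number 3, with 5.66 ± 1.27 CPM per kb, where its mice overlapped those of *Slco1a4* (6.36 ± 0.167). The order depends on the length used. With the mean length of the annotated transcripts, which is much shorter for *Flt1*, *Pecam1*, and *Slco1a4*, *Slco1a4* was first and *Apold1* number 8 in control, and *Apold1* was again number 10 in *Slc39a8*-NSKO mice.

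**Figure D4:**
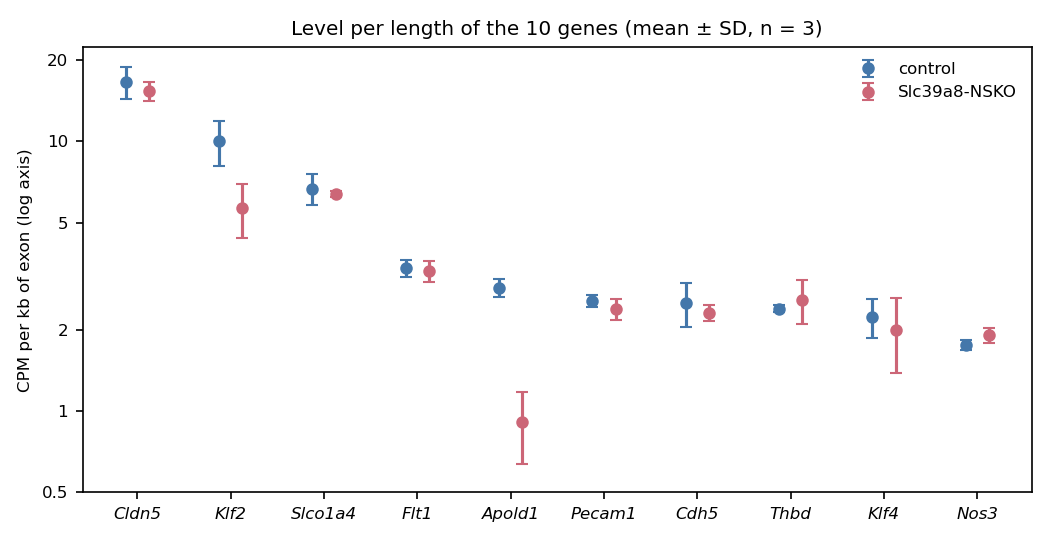
The vertical log axis shows CPM per kb of exon as mean ± SD (n = 3) for each gene in control and *Slc39a8*-NSKO mice, ordered by the control level. *Apold1* stands at 2.86 in control and 0.909 in *Slc39a8*-NSKO mice and *Klf2* at 10 and 5.66 CPM per kb, and the mice of the other 8 genes overlap.

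The genes also differed in how far mice of 1 genotype spread. For *Klf2* the coefficient of variation among controls was 19.0% and among *Slc39a8*-NSKO mice 22.5%, whereas counting error alone would give 5.73% and 7.03%. For *Klf4* it was 16.7% and 30.8%, against 9.42% and 9.19% from counting. *Apold1* varied by 7.61% in control, which equals its counting error of 7.59%, and by 29.7% in *Slc39a8*-NSKO mice, against 12.6% from counting. *Nos3* varied by 4.56% and 6.33%, below its counting error of 9.03% and 8.08%. *Thbd* varied by 2.81% in control, against 8.15% from counting, and by 18.6% in *Slc39a8*-NSKO mice, against 7.33%. Extra spread was not limited to the stimulus-responsive genes. Among controls it was 18.5% for *Cdh5* (7.5% from counting), 13.6% for *Cldn5* (5.0%), 13.1% for *Slco1a4* (3.7%), and 7.29% for *Flt1* (3.59%). *Pecam1* had 4.97%, below its counting error of 6.07%. In *Slc39a8*-NSKO mice *Cdh5* and *Slco1a4* lay below their counting error, and *Cldn5*, *Flt1*, and *Pecam1* above it. These values rest on 3 mice each and were not compared with a test.

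Over the 6 mice, the genes whose log2(CPM + 1) was most like that of *Apold1* among 14837 genes with a mean of at least 1 CPM were *Nr4a1* (Pearson's r = 0.99), *Fos* (0.98), *Kcnq1ot1* (0.98), *Fosb* (0.98), and *Fnbp1* (0.98). *Nr4a1*, *Fos*, and *Fosb* are immediate early transcription factor genes. Their mean CPM for controls and *Slc39a8*-NSKO mice was 66.0 and 23.6 for *Nr4a1*, 76.3 and 20.4 for *Fos*, and 3.36 and 0.533 for *Fosb*. That of *Kcnq1ot1* was 51.0 and 42.7, and that of *Fnbp1* 437 and 400. The 6 points include the genotype difference that chose *Apold1*, and the likeness is given as a description. With each genotype centred on its own mean, r was 0.88 for *Nr4a1*, 0.83 for *Fnbp1*, 0.81 for *Fos* and for *Kcnq1ot1*, and 0.67 for *Fosb*. By r the immediate early genes did not stand apart from *Fnbp1* and *Kcnq1ot1*. All 5 were picked for a high r, which does not read the size of a change, so it cannot separate them. Their log2 fold changes were -1.49 for *Nr4a1*, -1.91 for *Fos*, and -2.65 for *Fosb*, against -0.26 for *Kcnq1ot1* and -0.13 for *Fnbp1*. Other genes came first after centring, namely *Kcnn3*, *Lamc1*, *Fut2*, *Ubl7*, and *Gm12258* (0.99 to 1.0). Of the members, *Klf2* was most like *Apold1* over the 6 mice (r = 0.90, and 0.48 after centring), and the 5 markers had r between 0.10 and 0.43. After centring, *Thbd* (0.52) and *Nos3* (0.50) were close to *Klf2*, and with 6 mice no order is read from these values.

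Of 8 lists of other vascular and pathway genes, which leave out the members, 148 distinct genes were tested. None passed the adjusted threshold in edgeR's quasi-likelihood test or in limma-voom, and 1, *Txnip*, passed in DESeq2. An unadjusted p below 0.05 was found for 10 lower and 4 higher genes, or 9.46%, against 5.39% of all genes. Of the 10 lower genes, 5 were in the list of other stimulus-responsive vascular genes. That list held *Txnip*, whose lower level was known when it was written. The genotypes did not overlap in 10 lower and 12 higher genes, or 14.9%, against 10.3% of all genes. The lists were chosen with earlier results of these data known, so that nothing is read from these shares. Fold changes were negative in 66 and positive in 82 genes, with a median of 0.02.

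The endothelial markers had a median log2 fold change of 0.02 over 33 genes, from -0.23 for *Icam2* to 0.54 for *Sox18*. *Itm2a*, *Ptprb*, and *Ly6c1* were the most abundant, and their log2 fold changes were -0.06, -0.20, and -0.06 (adjusted p = 0.994, 0.908, and 0.994 from edgeR's test). Junction and transport genes of the blood-brain barrier had a median of 0.01 over 30 genes, and *Slc2a1*, the glucose transporter of the barrier, stood at 129 CPM in control and 137 CPM in *Slc39a8*-NSKO mice. The summed CPM of this list was 1940 to 1950 for controls and 1960 to 2000 for *Slc39a8*-NSKO mice, higher without overlap. *Spock2*, a matrix proteoglycan gene, made up most of that sum with 1090 CPM in both genotypes, and *Tfrc*, the transferrin receptor gene, was at 106 and 114 CPM. The sum therefore says little about the less abundant genes of the list. *Mfsd2a*, a lipid transporter of this barrier, differed by 0.35 on the log2 scale (standard error 0.108, with edgeR's adjusted p = 0.654). *Marveld2*, the gene of tricellulin, had -0.38 (standard error 0.108, with edgeR's adjusted p = 0.534).

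The RNA of 17 genes of flow sensing and of the MEK5-ERK5-MEF2 pathway, which acts upstream of *Klf2*, was measured, and RNA levels do not show the activity of the kinases. An unadjusted p below 0.05 was found for 0 of the 17, against 5.39% of all genes. The genotypes did not overlap for 3 of them, *Plxnd1* (lower), *Map2k5*, and *Gna11* (both higher), against 10.3% of all genes. Their log2 fold changes lay between -0.14 for *Plxnd1* and 0.16 for *Map2k5*, with a median of 0.00. *Mef2d* (230 and 222 CPM in control and *Slc39a8*-NSKO mice), *Hdac5* (202 and 189 CPM), and *Gnaq* (162 and 167 CPM) were the most abundant, and neurons express these too. Of 13 other KLF genes, the median was 0.03, or 0.11 without control mouse 1. *Klf6*, itself an inducible gene, was 27.8 CPM in control and 23.9 CPM in *Slc39a8*-NSKO mice (log2 fold change -0.22, adjusted p = 0.867 from edgeR's test), and *Klf13*, the most abundant, was 210 and 229 CPM (0.13, adjusted p = 0.916). *Klf9* was at 145 and 159 CPM and *Klf7* at 60.2 and 60.4 CPM.

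In the pathways of *Nos3* and *Thbd*, 14 genes of the nitric oxide pathway had a median log2 fold change of 0.06. For 8 genes of thrombomodulin and coagulation it was 0.05, or 0.16 without control mouse 1. These lists follow pathways and are not lists of KLF targets, so they do not measure the output of the KLF factors. *Cav2*, a caveolin, had the lowest value of the nitric oxide list with -0.41 (standard error 0.112, with edgeR's adjusted p = 0.473). The most abundant genes of that list were *Hsp90ab1* (1130 and 1120 CPM in control and *Slc39a8*-NSKO mice), *Hsp90aa1* (943 and 942 CPM), and *Nos1*, the neuronal nitric oxide synthase (126 and 133 CPM). *F3*, the gene of tissue factor, was 47.6 and 47.0 CPM, and *Plat*, the gene of tissue plasminogen activator, 50.7 and 46.6 CPM in control and *Slc39a8*-NSKO mice. VEGF ligands and receptors other than *Flt1* had a median of 0.06 over 8 genes, or 0.18 without control mouse 1. *Vegfa* was at 106 and 112 CPM, *Vegfb* at 51.3 and 50.2 CPM, and *Nrp2* at 11.7 and 12.9 CPM. *Pros1*, the gene of protein S, was at 7.83 and 8.36 CPM.

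Among 26 other stimulus-responsive genes of vessels, 5 had an unadjusted p below 0.05 and all 5 were lower, against 5.39% of all genes in either direction. These were *Txnip* (log2 fold change -0.67, adjusted p = 0.142), *Ccn1* (-0.91, adjusted p = 0.321), *Ier2* (-0.34, adjusted p = 0.612), *Sgk1* (-0.27, adjusted p = 0.867), and *Edn1* (-0.81, adjusted p = 0.878), from edgeR's test over all genes. The summed CPM of this list was 404 to 442 for controls and 345 to 401 for *Slc39a8*-NSKO mice, lower without overlap but by a narrow gap. Of that sum, *Sgk1* made up 132 CPM in control and 109 CPM in *Slc39a8*-NSKO mice, and *Txnip* 39.7 and 24.9 CPM. The gap rests in part on these genes, so the sum does not describe the list as a whole. *Ccn1*, which encodes a matrix protein, was 3.57 ± 0.693 CPM in control and 1.90 ± 0.174 CPM in *Slc39a8*-NSKO mice (SD, n = 3 each), without overlap. *Edn1*, the gene of the vasoconstrictor endothelin-1, was 2.61 ± 0.873 and 1.5 ± 0.590 CPM (SD, n = 3 each), with overlap. The log2 fold changes of the 26 were negative in 17 and positive in 9 genes, and their median was -0.04, or 0.03 without control mouse 3. *Rcan1*, a calcineurin regulator among the most abundant of the list, was at 34.1 and 35.1 CPM. The lower level of *Txnip* was known when the list was written, and *Txnip*, *Ier2*, and *Sgk1* are expressed in many cell types.

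**Figure D5:**
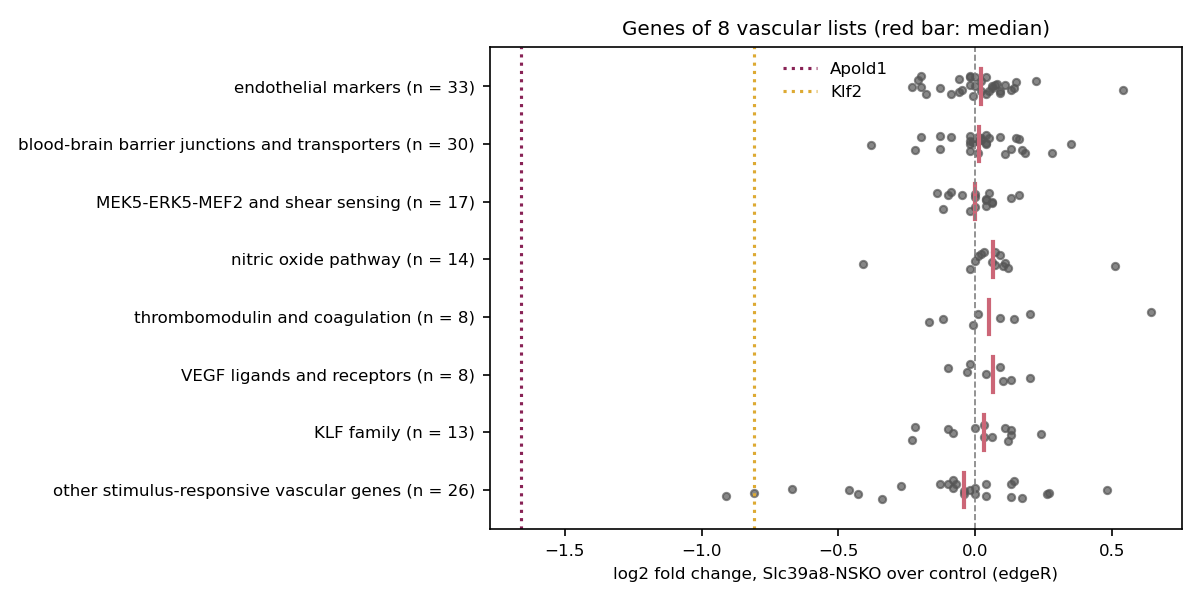
The horizontal axis shows the log2 fold change of *Slc39a8*-NSKO over control from edgeR for each gene of the 8 lists that passed the filter on low counts, with 1 row per list, a red bar at its median, and dotted lines at *Apold1* (-1.66) and *Klf2* (-0.81). The medians lie between -0.04 and 0.06, and no gene plotted reaches the value of *Apold1*.

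Markers of other cell types were summed to see what else moved with genotype. Pericyte markers summed to 242 to 257 CPM in control and 236 to 267 CPM in *Slc39a8*-NSKO mice, and those of vascular smooth muscle to 40.4 to 45.6 and 38.2 to 51.7 CPM. The sums also overlapped for fibroblasts (183 to 190 and 186 to 244 CPM), Bergmann glia and astrocytes (4580 to 4910 and 4900 to 5020 CPM), oligodendrocytes (8430 to 9620 and 7840 to 9460 CPM), and choroid plexus (780 to 1120 and 911 to 1560 CPM). They overlapped for Purkinje cells (6920 to 7780 and 7490 to 8110 CPM) and granule cells (6360 to 6600 and 6340 to 6860 CPM), the neurons that define the labelled tissue. Erythroid genes, which reflect blood left in the tissue, were at 235 to 536 and 350 to 557 CPM. An unadjusted p below 0.05 with a higher level in *Slc39a8*-NSKO mice was found for 4 of 10 Bergmann glia and astrocyte markers (*Gfap*, *Aqp4*, *Gja1*, and *Hopx*), 4 of 9 fibroblast markers, and 3 of 7 choroid plexus markers, against 5.39% of all genes in either direction. *Gfap* was 202 and 267 CPM, *Col3a1* of the fibroblast list 7.30 and 9.77 CPM, and *Folr1* of the choroid plexus list 2.34 and 4.58 CPM in control and *Slc39a8*-NSKO mice, each without overlap, and edgeR's adjusted p was 0.301, 0.537, and 0.228. Microglia markers did not overlap, with 136 to 159 CPM in control and 160 to 166 CPM in *Slc39a8*-NSKO mice. Of the 11 lists, only that of cardiac muscle held genes past the adjusted threshold by edgeR, namely *Myh6*, *Actc1*, and *Tnnt2*, which were higher, and its sums overlapped (269 to 307 and 280 to 307 CPM). *Ryr2*, which neurons express, made up 223 CPM of that sum in control and 212 CPM in *Slc39a8*-NSKO mice. The part of these other cells in the values of *Apold1* and *Klf2* was not tested.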

How the data were processed

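RNA of 1 cerebellum per mouse was sequenced in 3 control and 3 *Slc39a8*-NSKO mice. The authors aligned paired reads with STAR, and the deposited values are expected counts per gene, in the form that RSEM writes (both are named in the submitters' processing notes, with mm10 and without versions), without normalization. The 92 spike-in rows, with at most 5 counts in a mouse, were left out. Names were found for 53620 of 53715 genes in GENCODE M21 (GRCm38), 51464 of them in the same version. The labels name a directional kit, the methods do not use that word, and how the counting used strand is not given in the sources used here.

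Counts were rounded and tested in R 4.3.3 with edgeR 4.0.16 (TMM, filterByExpr, glmQLFTest, adjusted by Benjamini-Hochberg over 16330 genes). CPM refers to TMM-normalized library sizes. DESeq2 1.42.0 and limma 3.58.1 (voom) were alternatives, with RLE, library size alone, no filter, a minimum of 10 counts in every mouse, the replicate number as a block, and each mouse left out. Offsets for GC content and length were added after the data were seen. The tests were tried on simulated data. Any pair of mice differed beyond sampling noise (chi-square per degree of freedom 3.97 to 9.41). The samples were treated as separate mice, as the methods state, although a legend of the study speaks of technical triplicates. In that case SD and p would not describe animals. Here p-values set the genotype difference against the spread between these samples, as each test estimates it.

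Named genes are the 10 members, *Slc39a8*, the 3 most abundant genes of each vascular list, genes past the threshold, and the 5 most like *Apold1* before and after centring. *Icam2*, *Sox18*, *Mfsd2a*, *Marveld2*, *Plxnd1*, *Map2k5*, *Klf6*, *Cav2*, *Ccn1*, *Ier2*, *Edn1*, *Gna11*, *Gfap*, *Aqp4*, *Gja1*, *Hopx*, *Col3a1*, *Folr1*, *Myh6*, *Actc1*, *Tnnt2*, and *Ryr2* were named after their values were seen. The members and lists were chosen with earlier results of these data known. Of the listed symbols, 6 are older names that match no entry of the table.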

Additional observations from a re-analysis of the deposited data

How the results depend on the processing

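The number of genes past the threshold was 16, and it was 37 with DESeq2, 178 with no filter on low counts, 33 with offsets for GC content and length, and between 9 and 38 with 1 mouse left out. Of the members, 1 passed, and 2 passed with DESeq2, with no filter, with the offsets, and with the replicate block, while leaving out 1 mouse gave 1 to 2. Of the listed vascular genes 0 passed, against 1 with DESeq2 and 4 with no filter (*Txnip*, *Sgk1*, *Ccn1*, and *Ier2*), and 0 in every fit that left out a mouse. The cause of these moves was not tested. No called member changed direction under any alternative.

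With the replicate block, 41 genes passed. The deviations of mice with the same number correlated with r = 0.142, 0.116, and 0.0104 for numbers 1 to 3. Controls 1 and 2 correlated best with their own number and control 3 did not. Since number 3 was not above 0.1, the numbers were not taken as pairs.

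Of the 10 members, 1 (*Nos3*) kept its place in the control order by level per length, and 2 (*Apold1* and *Nos3*) in the *Slc39a8*-NSKO order, when the mean transcript length replaced the union of exons. Of the 5 genes most like *Apold1*, 1 stayed among the first by Spearman's rho, at which 17 genes tied at 1, and 0 after centring within genotype.

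The counts of *Apold1* in *Slc39a8*-NSKO mice, 52 to 82, and of *Klf4*, 77 to 140, limit how finely their differences can be read.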
